A study of Danio rerio with 8 samples.

Results

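The comparison described here is between whole kidney marrow of adult zebrafish that lack the microRNA miR-142-3p (142ab-/-, a double knockout) and the same tissue of wild-type fish. Its members are the 4 arrays whose titles name whole kidney marrow (WKMs), 2 knockout and 2 wild type, out of 8 arrays in the series. The other 4 arrays hold myelomonocytes, the granulocyte and monocyte lineage cells of the same organ, 2 from knockout and 2 from wild-type fish. All fish were 60 days post fertilisation (dpf) and carried no other named allele or agent. Each sample pooled 4 kidneys, and the kidney was passed through a filter before cells were sorted. The sort left out erythrocytes from the whole marrow samples, per the labels. Each group held 2 samples that the labels call biological repeats, so errors and p-values rest on 2 pools a group.

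In teleost fish the kidney is the adult site of blood formation, and its marrow holds neutrophils, monocytes, lymphocytes, thrombocytes, erythroid precursors and blood stem cells between the renal tubules. MicroRNAs are short RNAs that pair with messenger RNAs and lower their stability or translation. The miR-142 hairpin is expressed broadly in blood cells of fish and mammals, and zebrafish carry it in a duplicated pair of genes, mir142a and mir142b. No probe set was paired with either gene, so the loss of the microRNA itself could not be checked on these arrays. Sequences of the microRNA and of its target sites are not used here.

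Values are log2 probe set levels, and changes are knockout minus wild type on that scale with the standard error (SE) of the model. A level of 5.52, the median of all probe sets, served as the dim level: genes whose mean over the 8 arrays lay below it were set aside, and single levels below it are close to the faint end of the array. The labelled tissue carried its defining markers. The neutrophil genes mpx, a myeloperoxidase, and lyz, a lysozyme, stood at 12.77 and 13.17 in the first knockout array and at 12.72 and 13.16 in the first wild-type array. The B cell factor pax5 lay between 9.89 and 10.26 and the T cell kinase lck between 8.66 and 9.04 over the 4 arrays. Adult globin RNA was also high: hbaa2 stood at 12.69 and 12.88 in knockout marrow, against 12.56 and 12.80 in wild-type marrow, although erythrocytes were sorted out. Renal tubule RNA was present too, with cdh17 at 9.13 and 9.66 in knockout marrow and at 9.98 and 10.09 in wild-type marrow. In such bulk samples, fewer cells of a type and less RNA per cell cannot be told apart.

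Over 13774 genes tested, 1278 differed between knockout and wild-type marrow at a Benjamini-Hochberg adjusted p under 0.05 in limma, which is 9.28% of the genes. Of these, 651 rose (4.73%) and 627 fell (4.55%), and 267 changed by at least 2-fold, 146 upward and 121 downward. The median change over all genes was 0.00534, and 89.4% of the genes stayed within 0.5 of no change. The 2 knockout arrays correlated across genes at r = 0.992, as did the 2 wild-type arrays, and knockout with wild-type arrays at 0.97 to 0.974. In all the called genes the arrays of the 2 genotypes did not overlap, a pattern that 56.7% of all genes shared, so that separation alone carries little. Leaving out 1 of the 4 arrays lowered the count to 375 and 425 without the first and the second wild-type array, and to 515 and 361 without the first and the second knockout array. Of 191 called genes examined singly, 61 kept their call whichever array was left out, and these are said below to have held.

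Among genes without a clone symbol, the largest rises joined a cytokine receptor, sterol enzymes, a serine synthesis enzyme and several signalling genes. ifngr1, which encodes a receptor chain for interferon gamma, reached 9.90 and 9.67 in knockout marrow, against 6.74 and 6.55 in wild-type marrow, a change of 3.14 ± 0.18 (8.82-fold, adjusted p = 0.000158). Its 4 arrays formed 2 tight pairs with a wide gap between them. noctb, a nocturnin with rhythmic expression in vertebrates, read 10.30 in each knockout array, against 7.01 and 8.08 in wild-type marrow (2.76 ± 0.38, adjusted p = 0.0058). Here the wild-type arrays lay well apart from each other, though both were below the knockout arrays. kcnh5a, a voltage-gated potassium channel, stood at 8.08 and 8.92 in knockout marrow and at 6.03 and 5.75 in wild-type marrow (2.61 ± 0.24). lgals3bp.1, a galectin-binding protein of macrophages in mammals, stood at 10.51 and 10.17 in knockout marrow and at 8.44 and 7.52 in wild-type marrow (2.36 ± 0.29). alox5b.3, a relative of the arachidonate 5-lipoxygenase that starts leukotriene synthesis, stood at 10.39 and 11.31 in knockout marrow and at 8.62 and 8.42 in wild-type marrow (2.33 ± 0.32). The knockout arrays of alox5b.3 differed from each other more than its wild-type arrays did. Rises of 2.33 ± 0.28 in dact1 and 2.04 ± 0.28 in dkk2 concern 2 regulators of Wnt signalling.

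Further large rises were 1.91 ± 0.14 in hsd11b1lb, a hydroxysteroid dehydrogenase, 1.86 ± 0.27 in egln1a, a prolyl hydroxylase that acts on hypoxia-inducible factor, and 1.85 ± 0.10 in crlf2, a cytokine receptor. eomesb, a T-box transcription factor, stood at 8.33 and 8.24 in knockout marrow and at 6.54 and 6.64 in wild-type marrow (1.69 ± 0.09, adjusted p = 0.000157). casp23, a member of the caspase family, rose by 1.62 ± 0.15. For 7 of the 30 largest rises the wild-type mean lay below the dim level, so the size of the rise is poorly fixed at its lower end. These were and3, a fin fold actinodin (2.97 ± 0.19), cxl34b.11, cyp46a1.4, slc51a, ubald1a, wdfy4 and wscd1b. Such genes can pass the dim level through the arrays where they are high, and that filter was not redone when an array was left out. A dimmer probe set of ubald1a moved the opposite way, by -1.32, so its rise rests on 1 probe set. Of the 30 largest rises, 23 held. The rises of slc51a, cyp7a1, il15l, il11b, p2rx3a, grna.2 and OTOA lost their calls without at least 1 array, with adjusted p up to 0.131 for il15l.

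**Figure D1:**
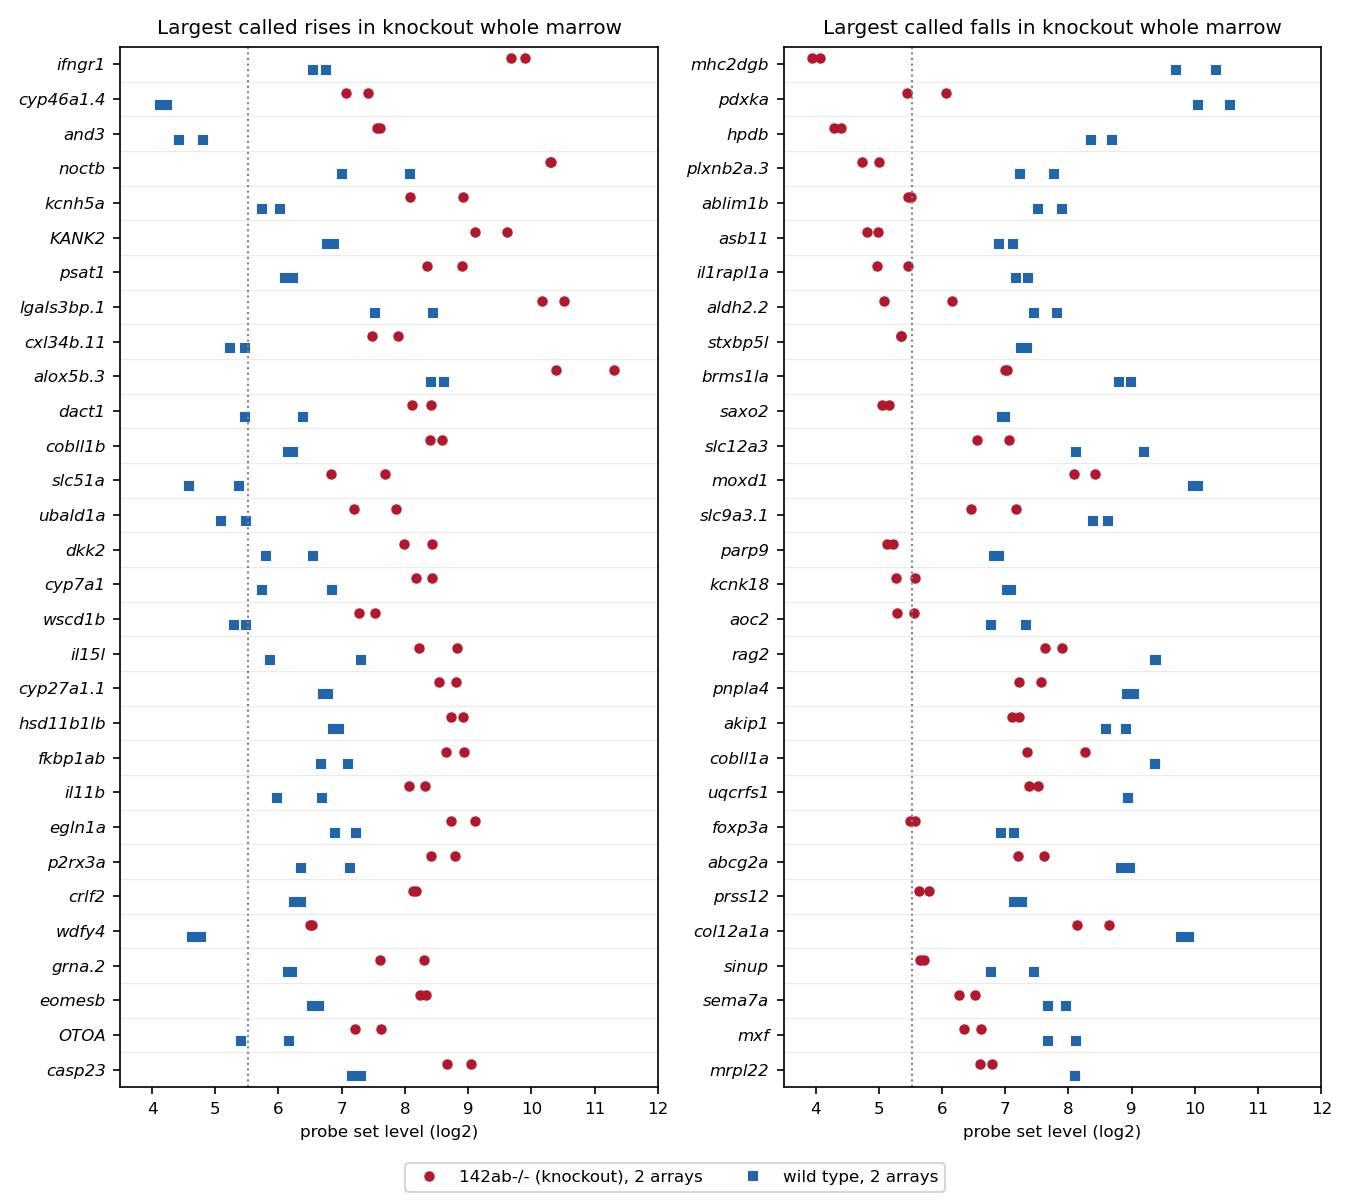
Log2 level in each whole marrow array for the 30 largest called rises (left) and falls (right), with red circles for the 2 knockout (142ab-/-) arrays and blue squares for the 2 wild-type arrays. The dotted line marks the dim level of 5.52, and mhc2dgb, pdxka and hpdb show the widest gaps between genotypes.

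The falls reached further than the rises. mhc2dgb, a beta chain of MHC class II, read 4.07 and 3.95 in knockout marrow, against 10.33 and 9.70 in wild-type marrow (-6.01 ± 0.47, adjusted p = 0.000606). Both knockout values lie under the dim level, and because MHC genes have near-identical copies, which copy the probe set reports is uncertain. pdxka, a pyridoxal kinase that makes the active form of vitamin B6, read 6.06 and 5.44 in knockout marrow, against 10.55 and 10.05 in wild-type marrow (-4.55 ± 0.26). Another probe set of pdxka changed by -3.88. hpdb, a dioxygenase in tyrosine breakdown, read 4.40 and 4.29 in knockout marrow, against 8.68 and 8.36 in wild-type marrow (-4.17 ± 0.15, adjusted p = 1.12e-05). These were the 3 largest falls among genes without a clone symbol, and each held. Both knockout values of hpdb also lie under the dim level, which its mean passed only through the wild-type marrow arrays. That filter was not redone when an array was left out, so holding does not test it for hpdb or for any other gene.

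plxnb2a.3, a plexin receptor, stood at 4.74 and 5.0 in knockout marrow and at 7.78 and 7.23 in wild-type marrow (-2.63 ± 0.31). ablim1b, an actin-binding LIM protein, stood at 5.47 and 5.51 in knockout marrow and at 7.90 and 7.51 in wild-type marrow (-2.22 ± 0.20). il1rapl1a, an interleukin-1 receptor relative, fell by 2.05 ± 0.17. abcg2a, an efflux transporter, fell by 1.49 ± 0.14, col12a1a, a collagen XII chain, by 1.46 ± 0.20, and mrpl22, a protein of the mitochondrial ribosome, by 1.4 ± 0.19. In 11 of the 30 largest falls the knockout mean lay below the dim level. Of the 30 falls 23 held, among them all those given so far. The 7 that did not were slc12a3, stxbp5l and mxf, whose calls were lost without any of the 4 arrays, and aldh2.2, slc9a3.1, prss12 and cobll1a, with adjusted p up to 0.192 for slc12a3. Other probe sets of stxbp5l and uqcrfs1, all dimmer, moved slightly upward, by 0.44 for stxbp5l and by 0.22 and 0.49 for uqcrfs1.

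Read by gene list, the share of changed genes varied widely between the lists. The 38 lists were described by counts without a test, to be read against 9.28% of all genes. Lists and members were chosen with earlier results of these data known, so a high share is not evidence about a pathway. The share of members called was 61.5% among 13 sterol hydroxylase and bile acid transport genes, 39.3% among 28 enzymes of amino acid, vitamin B6 and pteridine metabolism, and 31.8% among 22 monocyte and macrophage genes, and 3 of 10 podocyte genes were called. It lay between 27.3% and 29.6% for inflammatory, antimicrobial effector, interferon gamma and complement genes. At the other end, no member was called among 17 neutrophil, 24 endothelial and 38 DNA replication and mitosis genes. In these lists limma gave 3, 4 and 6 members at an unadjusted p under 0.05, beside 3407 of all 13774 genes. Neutrophil, B cell, erythroid, ribosomal and oxidative phosphorylation lists all had shares under that of all genes. The shares describe the members that passed the dim level and support nothing further, since a member can pass through the genotype in which it is high.

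**Figure D2:**
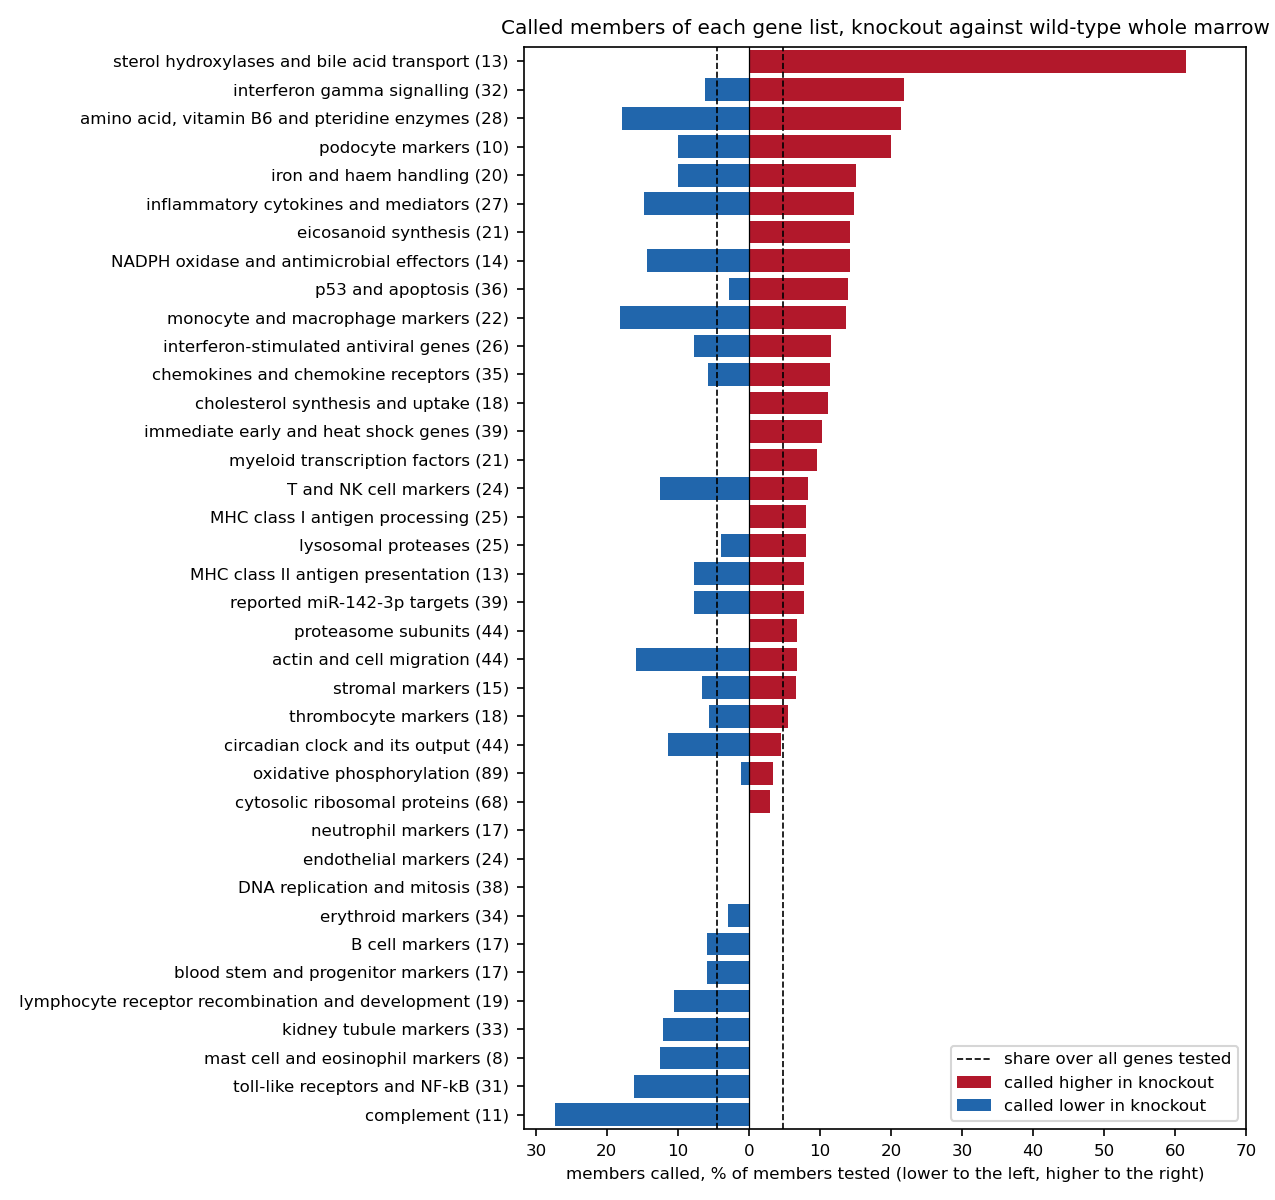
Share of the tested members of each of 38 gene lists called higher (red, right) or lower (blue, left) in knockout than in wild-type marrow, with the number tested in brackets. The dashed lines mark 4.73% higher and 4.55% lower over all genes, and the sterol list reaches furthest at 61.5% higher. The lists were chosen with earlier results of these data known.

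Interferon gamma signals through a pair of receptor chains, JAK kinases and STAT factors, and SOCS proteins feed back to damp it. The receptor chains moved in opposite directions in knockout marrow. While ifngr1 rose, ifngr2 stood at 8.34 and 8.24 in knockout marrow and at 8.86 and 8.66 in wild-type marrow (-0.47 ± 0.11, adjusted p = 0.0406), and crfb13, another receptor chain, stood at 11.78 and 11.70 in knockout marrow and at 11.78 and 11.75 in wild-type marrow. The kinase gene jak1 fell to 10.55 and 10.56 in knockout marrow, against 11.02 and 11.04 in wild-type marrow (-0.48 ± 0.09). The ligand gene ifng1 read 6.78 and 6.58 in knockout marrow and 5.95 and 6.37 in wild-type marrow, a difference that did not pass (0.52 ± 0.16, adjusted p = 0.092). In all, 7 of 32 members rose and 2 fell, with a list median of 0.04, beside 0.01 over all genes.

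The SOCS genes socs1a, socs1b and socs3b were among the members that rose, and no other inhibitor gene in the list was called. socs1a read 9.20 and 9.12 in knockout marrow, against 8.18 and 8.21 in wild-type marrow (0.96 ± 0.10, adjusted p = 0.00158). socs1b read 6.94 and 6.69 in knockout marrow, against 5.61 and 5.71 in wild-type marrow (1.16 ± 0.17), while a dimmer probe set of it changed by 0.04. socs3b stood at 11.63 and 11.26 in knockout marrow and at 10.19 and 10.78 in wild-type marrow (0.96 ± 0.20). Of the interferon regulatory factors in the list, irf9, part of the complex that type I interferon activates in mammals, rose by 0.54 ± 0.11, and irf1b by 0.75 ± 0.18. gbp1, a guanylate-binding GTPase, rose by 0.49 ± 0.11. irf1b, gbp1 and some called members in later paragraphs fall outside the naming rule and were chosen after their values were seen. ifngr1 and socs1a held. The other 7 calls of the list were lost without at least 1 array, with adjusted p up to 0.216 for ifngr2, and the counts of members higher were then 2 and 4 without the first and the second wild-type array and 2 and 3 without the first and the second knockout array, with none lower.

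Among 25 genes of MHC class I antigen processing, which interferons induce in mammals, 8.0% were called, beside 9.28% of all genes. Changes lay above 0 in 16 of the 25 and the median was 0.02. tapbpl, a tapasin relative that edits peptide loading, rose by 0.68 ± 0.12 and psmb10, an immunoproteasome subunit, by 0.55 ± 0.10, and 23 did not pass. b2m, the light chain of class I, read 12.35 and 12.20 in knockout marrow and 12.26 in each wild-type array. In the class II list 15.4% were called, beside 9.28% of all genes. Among 13 class II genes, ifi30a, a lysosomal thiol reductase, rose to 10.93 and 10.83 in knockout marrow, against 10.18 and 10.17 in wild-type marrow (0.71 ± 0.09), and mhc2dgb fell as given above. The invariant chain gene cd74a stood at 12.95 and 12.81 in knockout marrow and at 12.82 and 12.70 in wild-type marrow, and the class II activator ciita changed by -0.07 ± 0.17.

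Of 26 antiviral genes above the dim level, 3 rose and 2 fell (19.2% called, beside 9.28% of all genes). Changes lay above 0 in 20 of the 26 with a median of 0.2, and 13 further members were dim. ifit9 rose by 0.76 ± 0.12, uba7, the enzyme that activates ISG15, by 0.70 ± 0.11, and irf3, a sensor-activated transcription factor, by 0.69 ± 0.14. parp9, an ADP-ribosyltransferase relative, fell to 5.22 and 5.13 in knockout marrow, against 6.82 and 6.91 in wild-type marrow (-1.69 ± 0.09). mxf, an Mx GTPase, fell to 6.61 and 6.35 in knockout marrow, against 7.68 and 8.12 in wild-type marrow (-1.42 ± 0.29). isg15, a ubiquitin-like modifier, read 6.17 and 6.02 in knockout marrow and 6.98 and 6.47 in wild-type marrow and did not pass (adjusted p = 0.0511). ifi30a, mhc2dgb and parp9 held, whereas tapbpl, psmb10, ifit9, uba7, irf3 and mxf lost their calls without at least 1 array, with adjusted p up to 0.142 for irf3 and mxf.

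Sterol hydroxylases add hydroxyl groups to cholesterol, which opens the routes to oxysterols and bile acids, and solute carriers move bile acids and other organic anions across membranes. Of 20 members on the array 13 passed the dim level in the mean over all 8 arrays, and of these 8 rose in knockout marrow and none fell. cyp46a1.4 and slc51a had wild-type levels under the dim level and so passed through the arrays where they were high, and the other 7 members were dim. cyp46a1.4, of the cholesterol 24-hydroxylase family, read 7.42 and 7.07 in knockout marrow, against 4.24 and 4.12 in wild-type marrow (3.06 ± 0.36, adjusted p = 0.00323). cyp27a1.1, a sterol 27-hydroxylase, read 8.81 and 8.55 in knockout marrow, against 6.78 and 6.71 in wild-type marrow (1.94 ± 0.17, adjusted p = 0.000926). cyp7a1, the rate-limiting enzyme of bile acid synthesis in mammalian liver, read 8.18 and 8.43 in knockout marrow, against 5.74 and 6.84 in wild-type marrow (2.02 ± 0.36). The wild-type arrays of cyp7a1 lay further apart than those of cyp27a1.1.

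The transporters slc51a, a subunit of the organic solute exporter, and slco1f1, an organic anion transporter, rose as well. slc51a read 7.69 and 6.83 in knockout marrow, against 4.59 and 5.38 in wild-type marrow (2.28 ± 0.38), and slco1f1 read 6.28 and 6.43 in knockout marrow, against 5.45 and 5.60 in wild-type marrow (0.83 ± 0.14). The cholesterol 25-hydroxylase ch25h rose by 0.91 ± 0.18 and its bright relative ch25hl2 by 0.52 ± 0.10, to 12.80 and 12.91 in knockout marrow, against 12.39 and 12.28 in wild-type marrow. Members of the cyp46a1 family did not move together: cyp46a1.1 rose by 0.96 ± 0.23, whereas cyp46a1.2 stood at 7.53 and 7.25 in knockout marrow and at 7.60 and 7.96 in wild-type marrow. cyp46a1.4 and cyp27a1.1 held. With 1 array left out, 2 and 5 members were called without the first and the second wild-type array and 3 and 4 without the first and the second knockout array. The other 6 calls of the list reached adjusted p values of up to 0.205, that of cyp46a1.1.

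In cholesterol synthesis and uptake, msmo1, a methylsterol oxidase, rose by 0.68 ± 0.12 and insig1, a sterol sensor of the endoplasmic reticulum, by 0.46 ± 0.12, and the other 16 of 18 members did not pass. The share called was 11.1%, beside 9.28% of all genes. hmgcs1, an early enzyme of the pathway, read 8.35 and 8.40 in knockout marrow and 8.48 and 8.25 in wild-type marrow. Both calls were lost without at least 1 array, with adjusted p up to 0.233 for insig1.

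The enzymes of amino acid, vitamin B6 and pteridine metabolism split in knockout marrow, with 6 of 28 higher, 5 lower and a median of -0.02. Vitamin B6 is the cofactor of many transaminases, and a kinase and a phosphatase set the pool of its active phosphate form. While the kinase gene pdxka fell, pdxp, the phosphatase, read 8.29 and 7.90 in knockout marrow, against 7.58 and 7.51 in wild-type marrow (0.55 ± 0.13, adjusted p = 0.0414). The paralogue pdxkb stood at 7.50 and 7.22 in knockout marrow and at 7.75 and 7.34 in wild-type marrow, a change of -0.19 ± 0.16 that did not pass. In serine synthesis, psat1, a phosphoserine transaminase, read 8.35 and 8.90 in knockout marrow, against 6.23 and 6.11 in wild-type marrow (2.45 ± 0.17), and shmt2, which turns serine into glycine in mitochondria, read 10.58 and 10.96 in knockout marrow, against 10.03 and 10.18 in wild-type marrow (0.66 ± 0.14). cth, which makes cysteine from cystathionine, fell to 7.46 and 7.57 in knockout marrow, against 8.66 and 8.62 in wild-type marrow (-1.13 ± 0.15).

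In tyrosine breakdown hpdb fell, and gstz1, a later enzyme of that route, fell by 0.68 ± 0.15, while fah, the last enzyme, stood at 7.94 and 7.84 in knockout marrow and at 7.99 and 7.68 in wild-type marrow. qdpra, which recycles the pterin cofactor of aromatic amino acid hydroxylases, rose by 0.81 ± 0.10, and gch2, a GTP cyclohydrolase that starts pterin synthesis, by 0.84 ± 0.21. got2a, a mitochondrial aspartate transaminase, rose by 0.39 ± 0.09, and aldh2.2, a mitochondrial aldehyde dehydrogenase, fell by 2.01 ± 0.43. pdxka, hpdb, psat1, cth and qdpra held. The remaining 6 calls were lost without at least 1 array, with adjusted p up to 0.205 for gch2, and 2 or 3 members were then called higher and 3 or 4 lower.

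**Figure D3:**
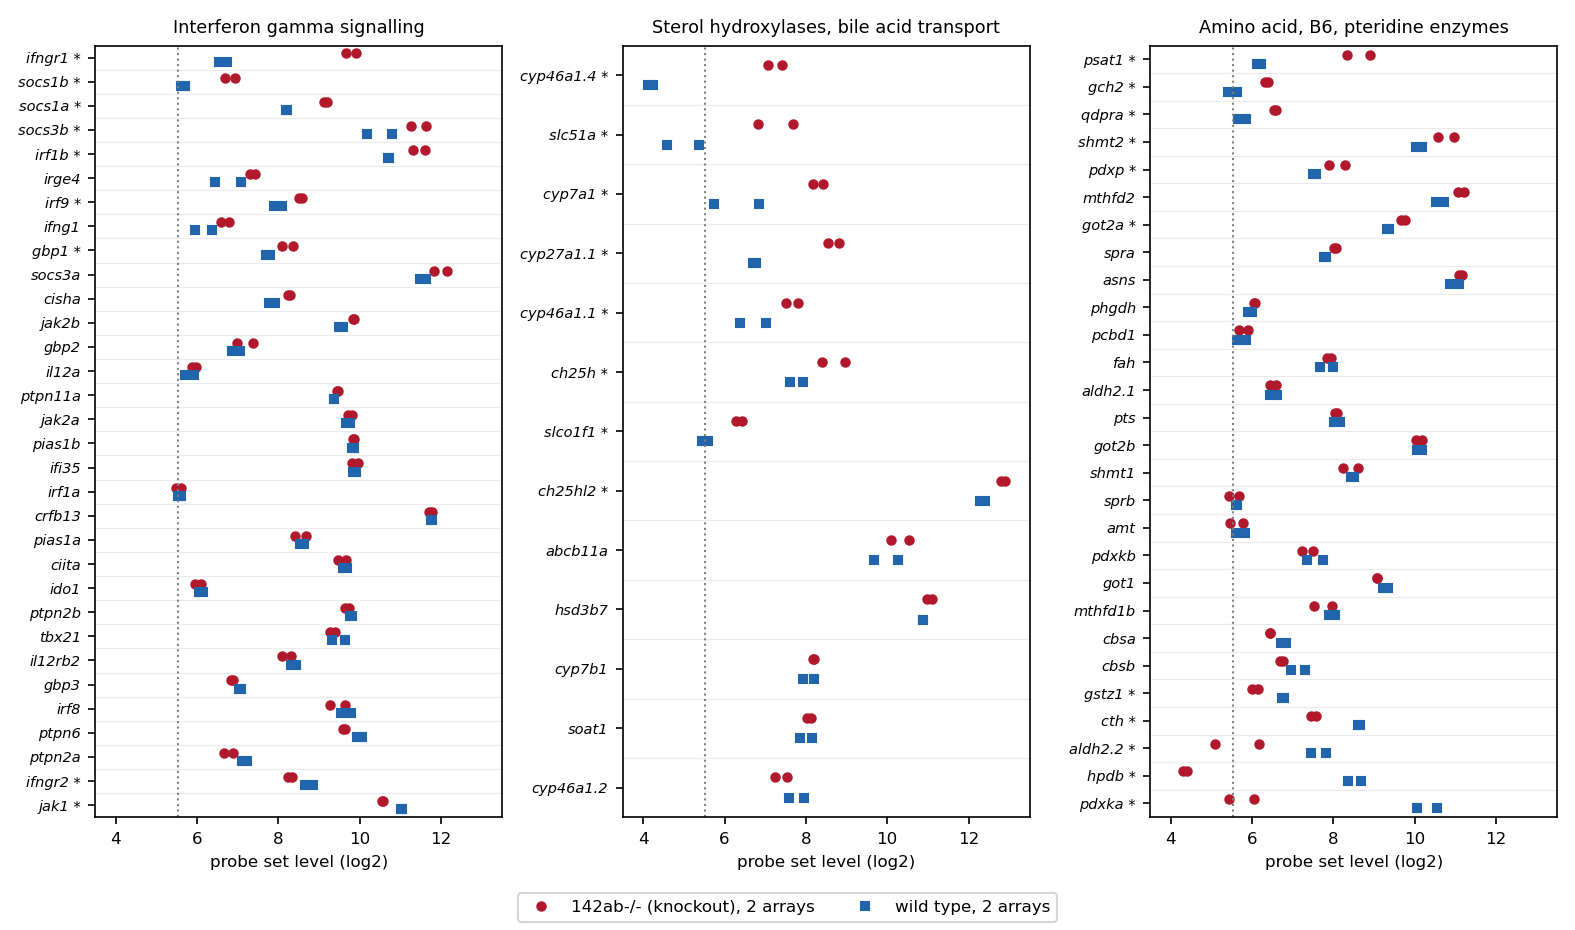
Log2 levels of the tested members of 3 gene lists in whole marrow, with red circles for the 2 knockout arrays, blue squares for the 2 wild-type arrays, an asterisk for called genes and a dotted line at the dim level of 5.52. ifngr1 leads the interferon gamma list, 8 of 13 sterol genes are called higher, and pdxka and hpdb close the amino acid list at the low end.

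Among lymphocyte genes, 5 of 24 T and NK cell genes (20.8%), 2 of 19 genes of receptor recombination and 1 of 17 B cell genes (5.88%) were called, beside 9.28% of all genes. rag2, a subunit of the recombinase that assembles antigen receptor genes, fell to 7.89 and 7.63 in knockout marrow, against 9.39 and 9.36 in wild-type marrow (-1.61 ± 0.17, adjusted p = 0.00196). Its partner rag1 stood at 9.12 and 8.73 in knockout marrow and at 8.98 in each wild-type array (-0.05 ± 0.15). foxp3a, the regulatory T cell factor, fell to 5.57 and 5.50 in knockout marrow, against 7.14 and 6.93 in wild-type marrow (-1.5 ± 0.13), which places it near the dim level in knockout marrow. cd4-1, the helper T cell co-receptor, read 7.44 and 7.17 in knockout marrow, against 8.36 and 8.39 in wild-type marrow (-1.07 ± 0.11). All 3 genes had knockout arrays well below both wild-type arrays.

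The other T cell genes were mixed. zap70, a kinase of the T cell receptor, fell by 0.68 ± 0.10, while cd247, a signalling chain of the same receptor, rose by 0.65 ± 0.13 and runx3, a factor of cytotoxic lymphocytes, by 0.43 ± 0.11. Of 24 T and NK cell genes 2 rose and 3 fell, with a median of 0.04. cd8b stood at 6.65 and 6.66 in knockout marrow and at 5.86 and 6.97 in wild-type marrow, where the wild-type arrays enclosed the knockout ones. Among 17 B cell genes, cd37, a tetraspanin of mature B cells, fell to 9.41 and 9.09 in knockout marrow, against 10.60 and 10.45 in wild-type marrow (-1.28 ± 0.15), and the other 16 did not pass. cd79a, a chain of the B cell receptor complex, stood at 8.69 and 8.23 in knockout marrow and at 8.44 in each wild-type array. rag2, foxp3a, cd4-1 and cd37 held, and zap70, cd247 and runx3 lost their calls without at least 1 array, with adjusted p up to 0.212 for runx3.

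Neutrophil genes did not pass in either direction, and the medians of their 17 members and of 21 myeloid transcription factors were 0.12 and -0.04. csf3r, the receptor for the granulocyte growth factor, stood at 12.11 and 12.04 in knockout marrow and at 12.13 and 12.18 in wild-type marrow. spi1b, the PU.1 factor of myeloid cells, stood at 12.17 and 12.08 in knockout marrow and at 12.24 in each wild-type array. Of the 21 factors, runx3 and klf4 rose (9.52% called, beside 9.28% of all genes). klf4, a factor of monocyte differentiation in mouse, rose to 8.12 and 7.57 in knockout marrow, against 6.69 and 7.15 in wild-type marrow (0.92 ± 0.23, adjusted p = 0.0438). Its wild-type arrays differed by nearly as much as its knockout arrays did, and its call was lost without any of the 4 arrays, with adjusted p up to 0.230.

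Of 22 monocyte and macrophage genes 3 rose and 4 fell. Besides lgals3bp.1, lgals9l1, a galectin, rose by 0.87 ± 0.13 and grna.2, a granulin, by 1.77 ± 0.33. mfap4.1, a zebrafish macrophage marker, fell to 8.09 and 7.61 in knockout marrow, against 9.73 and 8.72 in wild-type marrow (-1.37 ± 0.33). mpeg1.2, a perforin-like marker, fell by 0.78 ± 0.15, while its paralogue mpeg1.1 stood at 11.20 and 11.25 in knockout marrow and at 11.06 and 11.07 in wild-type marrow. c1qb, a chain of complement C1q made by macrophages, fell to 8.97 and 8.40 in knockout marrow, against 9.46 and 9.51 in wild-type marrow (-0.80 ± 0.21), and slc7a7, an amino acid transporter subunit, fell by 0.68 ± 0.16. Monocyte genes thus moved both ways within 1 list. In the complement list, with 13 further members dim, c7b of the membrane attack complex fell by 0.89 ± 0.19 and cfd, the factor D protease, by 0.65 ± 0.09. Thus 3 of 11 members fell and none rose (27.3% called, beside 9.28% of all genes). Only lgals3bp.1 and lgals9l1 among these held, and the others reached adjusted p values of up to 0.241, that of c1qb.

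Toll-like receptors sense microbial molecules and signal to NF-kB. In knockout marrow 5 of 31 genes of this list fell and none rose (16.1% called, beside 9.28% of all genes). The median was -0.23. tlr9, the receptor for unmethylated DNA, read 8.15 and 7.60 in knockout marrow, against 8.98 and 8.70 in wild-type marrow (-0.97 ± 0.19). tlr21, a DNA sensor of fish and birds, read 9.57 and 9.44 in knockout marrow, against 10.09 and 10.07 in wild-type marrow (-0.57 ± 0.13). tlr20f and tlr20.2, of a receptor family that mammals lack, fell by 1.2 ± 0.27 and 0.69 ± 0.16. ikbkb, the kinase that releases NF-kB from its inhibitor, fell by 0.51 ± 0.09. None of these 5 calls held: 1 member was called without the first knockout array and 0 without any of the other 3, when adjusted p reached 0.205 for tlr20.2.

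Of the phagocyte oxidase, which makes superoxide, cyba read 10.05 and 9.94 in knockout marrow and 10.22 and 10.27 in wild-type marrow and did not pass (-0.25 ± 0.11, adjusted p = 0.209). ncf1 read 12.40 in each knockout array and 12.39 and 12.37 in wild-type marrow, and cybb 11.62 and 11.45 in knockout marrow and 11.63 and 11.59 in wild-type marrow. In the same list of 14 effectors, the inflammasome sensor nlrp3 rose by 0.56 ± 0.12 and its adaptor pycard fell by 0.62 ± 0.14, with caspa, the caspase that pycard recruits in zebrafish, lower by 0.47 ± 0.11. epx, an eosinophil-type peroxidase, rose by 0.48 ± 0.11. All 4 calls were lost without at least 1 array, with adjusted p up to 0.227 for caspa. cpa5, a mast cell protease gene, stood at 13.03 and 13.04 in knockout marrow and at 12.97 and 12.93 in wild-type marrow.

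Among 27 inflammatory cytokines and mediators 4 rose and 4 fell. il11b, of the interleukin-6 family, read 8.32 and 8.07 in knockout marrow, against 5.98 and 6.68 in wild-type marrow (1.86 ± 0.29). il15l, a relative of interleukin 15, read 8.83 and 8.23 in knockout marrow, against 5.86 and 7.31 in wild-type marrow (1.94 ± 0.41). tnfb, a tumour necrosis factor, rose by 0.82 ± 0.20, and csf3b, a granulocyte growth factor, by 0.90 ± 0.20. In all 4 of these genes the first wild-type array was the lowest of the 4 arrays. il1b, the main inflammatory interleukin, showed the same order at 13.11 and 12.95 in knockout marrow and 11.83 and 12.66 in wild-type marrow and did not pass (0.78 ± 0.25, adjusted p = 0.0922).

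Mean levels over the inflammatory list were 7.80 and 7.59 in knockout marrow and 7.44 and 7.70 in wild-type marrow, so the second wild-type array lay between the knockout arrays. The part of this spread between the wild-type arrays in the rises was not tested, and without the first wild-type array no member was called higher, and likewise without the first knockout array, against 6 without the second wild-type array. acod1, which makes itaconate in activated macrophages, fell by 0.91 ± 0.13, tnfsf10, the death ligand TRAIL, by 1.00 ± 0.19, and tnfsf12, another TNF family ligand, by 0.79 ± 0.16. The remaining fall was il1rapl1a, a receptor relative and not a cytokine, whose knockout mean lay below the dim level. Of the 8 calls only that of il1rapl1a held, and the largest adjusted p with 1 array left out was 0.204, for tnfb.

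Immediate early genes, which stress and handling of cells switch on within minutes, showed a similar order of arrays. jun, an AP-1 factor, read 9.92 and 9.42 in knockout marrow, against 7.75 and 8.61 in wild-type marrow (1.49 ± 0.29), and fosl1a, its partner, read 10.93 and 10.14 in knockout marrow, against 9.11 and 9.18 in wild-type marrow (1.39 ± 0.24). The MAP kinase phosphatases dusp4 and dusp5 rose by 0.79 ± 0.16 and 0.77 ± 0.18. Most of the list, which also holds heat shock genes, did not follow, since 35 of 39 members did not pass. Of these, fosb, a close relative of c-fos, stood at 11.26 and 10.78 in knockout marrow and at 10.14 and 10.82 in wild-type marrow. The largest rise among members that did not pass was 1.72. The share of the list called was 10.3%, beside 9.28% of all genes. Mean levels of the list were 10.00 and 9.89 in knockout marrow and 9.60 and 9.80 in wild-type marrow. All 4 calls were lost without at least 1 array, with adjusted p up to 0.203 for dusp5.

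Chemokines guide cell movement, and 4 of 35 ligands and receptors rose while 2 fell (17.1% called, beside 9.28% of all genes). cxl34b.11 stood at 7.89 and 7.48 in knockout marrow and at 5.23 and 5.47 in wild-type marrow (2.34 ± 0.15, adjusted p = 0.00023). ccl38.6 rose by 1.15 ± 0.18, cxcl19 by 0.75 ± 0.14 and the receptor xcr1b.1 by 0.60 ± 0.15. ccl34b.9 fell by 0.58 ± 0.11, as did cxcl12b, a stromal retention signal, by 0.58 ± 0.13 to 5.95 and 5.67 in knockout marrow, against 6.51 and 6.28 in wild-type marrow. Its bright paralogue cxcl12a stood at 10.61 and 10.59 in knockout marrow and at 10.72 and 10.54 in wild-type marrow. cxl34b.11 held, and the other 5 calls reached adjusted p values of up to 0.223, that of xcr1b.1.

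The circadian clock runs on a feedback loop in which period and cryptochrome proteins restrain their own activators, and zebrafish clocks also respond directly to light. In knockout marrow 5 of 44 clock and output genes fell, by at most 0.72, while noctb and roraa rose. The share called was 15.9%, beside 9.28% of all genes. per1a, a period gene, read 8.89 and 9.02 in knockout marrow, against 9.41 and 9.58 in wild-type marrow (-0.54 ± 0.11). The output factors dbpb and tefa fell by 0.57 ± 0.12 and 0.44 ± 0.10, the repressor bhlhe41 by 0.72 ± 0.16, and ciarta, an inhibitor of the clock activators, by 0.43 ± 0.11. roraa, a nuclear receptor of the loop, rose by 0.62 ± 0.15. per2 stood at 9.89 and 10.16 in knockout marrow and at 10.47 and 10.43 in wild-type marrow without passing, and its other probe set changed by -0.05. The labels do not state the time of day of sampling. noctb held, and the other 6 calls were lost without at least 1 array, with adjusted p up to 0.225 for ciarta.

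Of 34 erythroid genes none was called higher and gypc was called lower, while 27 lay above 0 with a median of 0.19. Mean levels over the list were 10.64 and 10.89 in knockout marrow and 10.53 and 10.66 in wild-type marrow, so the first knockout array lay between the wild-type arrays, and the median was 0.06 without the second knockout array. gypc, a glycophorin of the red cell membrane, read 8.39 and 7.95 in knockout marrow, against 9.22 and 8.93 in wild-type marrow (-0.90 ± 0.23, adjusted p = 0.0452), but a dimmer probe set of it changed by 0.11 and the call was lost without any of the 4 arrays, with adjusted p up to 0.240. alas2, the first enzyme of red cell haem synthesis, stood at 12.41 and 12.57 in knockout marrow and at 12.22 and 12.32 in wild-type marrow (0.21 ± 0.11). Limma gave 7 of the 34 members at an unadjusted p under 0.05, beside 3407 of all 13774 genes.

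Of 20 genes of iron and haem handling 3 rose and 2 fell. hmox1a, the haem oxygenase that breaks down haem, fell to 8.09 and 8.16 in knockout marrow, against 9.10 and 9.56 in wild-type marrow (-1.21 ± 0.15, adjusted p = 0.00441). flvcr1, a haem exporter, fell by 0.64 ± 0.12. tfr2, a transferrin receptor that senses iron, rose to 10.82 and 11.50 in knockout marrow, against 9.91 and 9.97 in wild-type marrow (1.22 ± 0.20), and fth1b, a ferritin chain, rose by 1.18 ± 0.22, while the brighter fth1a changed by 0.05 ± 0.09. slc40a1, the iron exporter ferroportin, rose by 0.69 ± 0.10. hmox1a held, and the other 4 calls reached adjusted p values of up to 0.0952, that of fth1b.

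Stem cell, thrombocyte and mast cell lists each had 1 call lower. Their shares called in either direction were 5.88%, 11.1% and 12.5%, beside 9.28% of all genes. gata2a, a factor of early progenitors and mast cells in both lists, read 8.38 and 8.39 in knockout marrow, against 9.62 and 8.98 in wild-type marrow (-0.91 ± 0.22), while runx1 and myb, central stem cell factors, changed by 0.10 ± 0.11 and 0.15 ± 0.11. In the thrombocyte list the integrin chain itgb3a rose by 0.44 ± 0.09 and nfe2, a platelet and erythroid factor, fell by 0.55 ± 0.14, with itga2b, the partner chain, at 7.87 and 7.51 in knockout marrow and at 7.75 and 7.74 in wild-type marrow. Of 38 DNA replication and mitosis genes none passed, and 26 lay above 0 within a range of -0.43 to 0.75. Their mean levels were 8.62 and 8.99 in knockout marrow and 8.77 and 8.64 in wild-type marrow, so the knockout arrays enclosed the wild-type ones, and the median of 0.1 was -0.1 without the second knockout array. pcna, the replication clamp, stood at 11.95 and 12.06 in knockout marrow and at 12.11 and 11.99 in wild-type marrow. The calls of gata2a, itgb3a and nfe2 were lost without at least 1 array, with adjusted p up to 0.244 for nfe2.

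Renal tubule RNA was present in these samples, so renal genes were listed too. The tubule gene cdh17 also stood at 10.51 and 10.71 in knockout and at 10.23 and 10.65 in wild-type myelomonocytes. Which cells carried this RNA was not tested. Of 33 tubule genes 4 fell and none rose (12.1% called, beside 9.28% of all genes). Changes lay below 0 in 26 members, and the median was -0.17. slc12a3, the sodium chloride cotransporter of the distal tubule, read 6.55 and 7.06 in knockout marrow, against 8.13 and 9.19 in wild-type marrow (-1.86 ± 0.45, adjusted p = 0.041). slc9a3.1, a sodium-proton exchanger, read 6.46 and 7.17 in knockout marrow, against 8.39 and 8.63 in wild-type marrow (-1.69 ± 0.27), slc5a2, a glucose transporter of the proximal tubule, fell by 1.01 ± 0.22, and slc7a9, a subunit of the cystine transporter, by 0.89 ± 0.16. Mean levels over the tubule list were 7.37 and 7.81 in knockout marrow and 7.79 and 7.96 in wild-type marrow, so the second knockout array lay between the wild-type arrays. The tubule regulators pax2a and pax8 changed by -0.03 and -0.01. Without the second wild-type array 0 tubule genes were called, without the first wild-type or the first knockout array 1, and without the second knockout array 4, with adjusted p up to 0.192 for slc12a3. Whether the share of tubule cells bears on other falls was not tested.

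Of 10 podocyte genes, from the filter of the kidney glomerulus, 2 rose, 1 fell and 7 lay above 0, with a median of 0.2. tcf21, a podocyte and stromal factor, rose by 1.06 ± 0.23 and magi2a, a scaffold, by 0.54 ± 0.13, while cd2ap, an adaptor also used by lymphocytes, fell by 0.78 ± 0.17. nphs1, the nephrin that defines podocytes, was close to the dim level at 5.73 and 5.74 in knockout marrow and at 5.35 and 6.08 in wild-type marrow. Among 15 stromal genes lepr, a leptin receptor, rose by 1.06 ± 0.17 and cxcl12b fell (13.3% called, beside 9.28% of all genes). cdh5, the endothelial cadherin, stood at 7.43 and 7.14 in knockout marrow and at 7.69 and 7.61 in wild-type marrow without passing. These calls were lost without at least 1 array, with adjusted p up to 0.213 for magi2a.

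The actin cytoskeleton drives migration of blood cells, and it is where several targets of miR-142-3p have been reported in mouse and zebrafish. Of 44 actin and migration genes 3 rose and 7 fell in knockout marrow (22.7% called, beside 9.28% of all genes). Changes lay below 0 in 32 of the 44, with a median of -0.15. waslb, the N-WASP relative reported as a target, read 6.81 and 6.84 in knockout marrow, against 6.28 and 6.12 in wild-type marrow (0.63 ± 0.11, adjusted p = 0.0155), and its paralogue wasla 6.69 and 6.80 in knockout marrow, against 6.47 and 6.23 in wild-type marrow, which did not pass. Subunits of the Arp2/3 complex parted: arpc1a rose to 11.07 and 10.96 in knockout marrow, against 10.12 and 9.94 in wild-type marrow (0.99 ± 0.11), while arpc1b fell by 0.41 ± 0.10. Likewise the profilin pfn2b rose by 0.57 ± 0.12 and pfn1 fell by 0.39 ± 0.10. Paralogues in this list can thus differ in direction.

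capga, which caps actin filaments, fell by 0.78 ± 0.13, elmo1, a Rac activator, by 0.62 ± 0.11, vaspa, which elongates filaments, by 0.47 ± 0.11, and wasf2, a WAVE protein, by 0.40 ± 0.10. Of the calls of this list given here, which include 6 of the 7 falls, that of arpc1a held. The others were lost without at least 1 array, with adjusted p up to 0.237 for pfn1, and centring each array on its median left 3 of the 7 falls called.

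Among 39 genes reported as miR-142-3p targets, which the microRNA would lower in wild-type cells, 3 rose and 3 fell. The share called was 15.4%, beside 9.28% of all genes. The changes lay between -1.15 and 1.16 with a median of 0.07, and 22 members lay above 0 and 17 below. Besides waslb, socs1a and socs1b, which rose, git2b, a scaffold and Arf GTPase-activating protein, fell to 8.20 and 7.67 in knockout marrow, against 9.07 and 9.10 in wild-type marrow (-1.15 ± 0.21, adjusted p = 0.0144). twf1a, a twinfilin that binds actin monomers, fell to 9.64 and 9.45 in knockout marrow, against 10.03 and 10.00 in wild-type marrow (-0.47 ± 0.10). The list was drawn from reports in several species and held members of several other lists here. Of these 5 calls that of socs1a held, and the others were lost without at least 1 array, with adjusted p up to 0.184 for twf1a.

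Among 36 p53 and apoptosis genes 5 rose and 1 fell (16.7% called, beside 9.28% of all genes). baxb, a pro-apoptotic BCL2 family gene, fell to 6.94 and 6.85 in knockout marrow, against 8.19 and 7.97 in wild-type marrow (-1.18 ± 0.12, adjusted p = 0.0019). sesn2, a stress-responsive sestrin, rose by 0.91 ± 0.15, casp9, the initiator caspase, by 0.58 ± 0.14, gadd45ab by 0.59 ± 0.14, tp73, a p53 relative, by 0.62 ± 0.16 and rps27l by 0.57 ± 0.14. mdm2 and cdkn1a, classical p53 targets, changed by 0.21 ± 0.10 and 0.26 ± 0.20 and did not pass. baxb held, and the 5 rises reached adjusted p values of up to 0.231, that of tp73.

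Besides psmb10, the proteasome subunits psmb2 and psmb4 rose by 0.50 ± 0.10 and 0.41 ± 0.10 among 44, of which 37 lay above 0. The share called was 6.82%, beside 9.28% of all genes. In oxidative phosphorylation, uqcrfs1, the iron-sulfur subunit of complex III, fell to 7.37 and 7.52 in knockout marrow, against 8.95 in each wild-type array (-1.5 ± 0.10), while cox4i1l and cox7a1, subunits of cytochrome oxidase, rose by 0.80 ± 0.12 and 0.80 ± 0.16 and atp5md by 0.47 ± 0.09, and 85 of 89 members did not pass. Of 68 cytosolic ribosomal proteins rpl30 and rps27l rose, and 48 lay below 0 with a median of -0.04. With the probe sets of each gene averaged, the call of uqcrfs1 was lost, and the other calls of these lists reached adjusted p values of up to 0.196, that of rps27l, with 1 array left out.

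In eicosanoid synthesis, the making of leukotrienes and prostaglandins, 3 of 21 genes rose and none fell (14.3% called, beside 9.28% of all genes). Besides alox5b.3, hpgd, which inactivates prostaglandins, rose by 0.56 ± 0.10 and ptgr1.1, a reductase in leukotriene breakdown, by 0.55 ± 0.10. alox5a, the other lipoxygenase, stood at 10.84 and 10.75 in knockout marrow and at 10.76 and 10.83 in wild-type marrow. Among 25 lysosomal genes, ctsbb, a cathepsin B, rose by 0.91 ± 0.19 and lamp1b, a membrane glycoprotein, by 0.66 ± 0.16, and tpp1, a peptidase, fell by 0.74 ± 0.09. alox5b.3 and tpp1 held, and the other 4 calls reached adjusted p values of up to 0.182, that of lamp1b.

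Many of the genotype changes of whole marrow were also called in sorted myelomonocytes, where 1703 genes (12.4%) differed between genotypes. In both populations 633 genes were called, 49.5% of the whole marrow calls and 37.2% of the myelomonocyte calls. Of these 350 rose in both, 274 fell in both and 9 went opposite ways. The 2 comparisons share no arrays, but marrow contains myelomonocytes and the model shares its variance. Deviations of equal-numbered marrow and myelomonocyte samples from their group means correlated at 0.267 in knockout and 0.405 in wild type. The labels do not say whether equal numbers share kidneys, so the 2 comparisons may not come from separate fish. Among the 30 largest rises 17 were also called higher in myelomonocytes, and among the 30 largest falls 23 were also called lower. ifngr1, for example, rose by 2.69 in myelomonocytes and pdxka fell by 4.40.

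The difference between the genotype changes of whole marrow and of myelomonocytes was called for 38 genes (0.276%), 20 higher and 18 lower in whole marrow. hpdb had the largest difference among the named genes. It stood at 4.29 and 4.56 in knockout myelomonocytes and at 4.73 and 4.92 in wild-type ones, so its change was -4.17 in whole marrow and -0.40 in myelomonocytes, a difference of -3.77 ± 0.21 (adjusted p = 0.00115). All 4 myelomonocyte levels of hpdb were under the dim level, as were both knockout marrow levels. hpdb thus passed the dim level only through the wild-type marrow arrays, where it was high, and its call rests on that group. il11b went opposite ways, with 4.77 and 4.95 in knockout and 6.59 and 5.80 in wild-type myelomonocytes, against the rise in marrow (difference 3.2 ± 0.41). psat1 stood at 6.17 and 6.14 in knockout and at 5.62 and 5.67 in wild-type myelomonocytes (difference 1.94 ± 0.23), and KANK2, a scaffold protein, differed by 2.31 ± 0.27. Both genes were higher in knockout marrow than in any of the other 6 arrays.

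Lymphocyte and immune genes were among the differences. foxp3a stood at 5.64 and 5.85 in knockout and at 5.82 and 5.61 in wild-type myelomonocytes, near the dim level, so the change differed by -1.53 ± 0.18. tlr21 fell in marrow but rose in myelomonocytes, with 8.69 and 8.95 in knockout and 7.64 and 7.87 in wild-type myelomonocytes (difference -1.64 ± 0.18), and anxa1a, an annexin that limits inflammation in mammals, did the same (difference -1.43 ± 0.18). gypc fell by 3.14 in myelomonocytes and by 0.90 in marrow (difference 2.24 ± 0.32). The erythroid list as a whole had a median of 0.19 in marrow and -0.62 in myelomonocytes, where 18 of 34 members were called lower (5.51% of all genes were). Tubule genes had medians of -0.17 in marrow and 0.57 in myelomonocytes, where 8 of 33 were called higher (6.85% of all genes were). The difference itself was called for 2 of the 34 erythroid and 0 of the 33 tubule genes, beside 0.276% of all genes. Of the 22 differences examined with 1 array left out, that of hpdb alone kept its call throughout, the count of calls over all genes lay between 1 and 7, and the others reached adjusted p values of up to 0.163 for moxd1 and unc119a1.

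**Figure D4:**
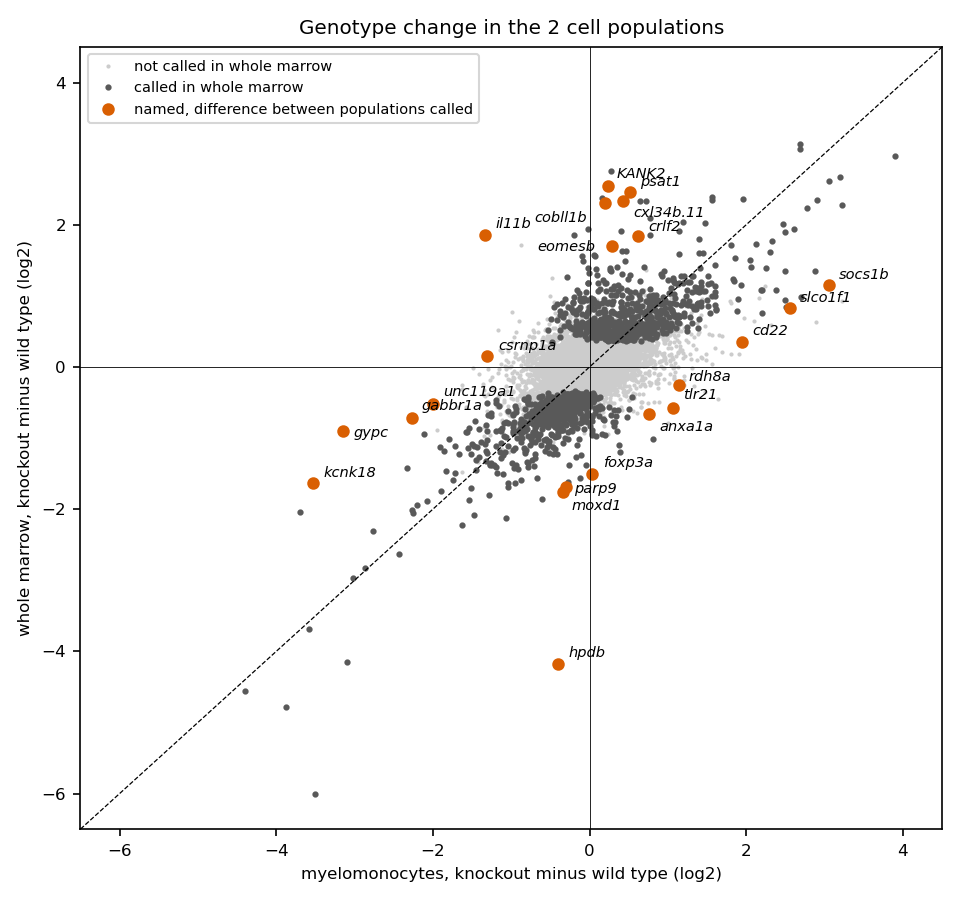
Genotype change (knockout minus wild type, log2) of each of 13774 genes in whole marrow (vertical) against that in myelomonocytes (horizontal), with genes called in whole marrow in dark grey and named genes whose difference between populations was called in orange. hpdb lies lowest among the orange points at -4.17 in whole marrow, and il11b lies on opposite sides of 0 in the 2 populations.

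Genes beside mir142a and mir142b were examined because a mutant line carries the chromosome stretch around its mutation. Among the 50 tested genes nearest to mir142a, 25 on each side in the RefSeq gene order, 5 were called (10.0%), and among the 50 nearest to mir142b 12 were called (24.0%), beside 9.28% of all genes. Near mir142b 9 rose and 3 fell, and 11 of the 12 lay on its start side. The start side means lower chromosome coordinates, whatever the strand of the microRNA gene. coq8b, a kinase-like protein of coenzyme Q synthesis, averaged 8.44 in knockout marrow and 7.56 in wild-type marrow (0.88 ± 0.10, adjusted p = 0.00256). gpr184, a G protein-coupled receptor, averaged 8.72 in knockout marrow and 7.71 in wild-type marrow (1.01 ± 0.19). slc5a2 of the tubule list is also in this stretch. The median absolute change was 0.20 among these 50 genes, 0.13 near mir142a and 0.16 over all genes.

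The gene next to mir142b on its start side carries a clone name and rose by 1.72 ± 0.23. nectin3a, an adhesion protein (0.35 ± 0.09), p4ha3, a collagen hydroxylase (1.09 ± 0.25), and tmprss4a, a protease (0.62 ± 0.11), rose in the same stretch, and fxyd6, a regulator of the sodium pump, fell by 0.70 ± 0.13. On the end side dhx40, a helicase, rose by 0.83 ± 0.15. In myelomonocytes nectin3a changed by -0.49 and fxyd6 by 0.48, both called and opposite to marrow, and slc5a2 by 0.81 without passing. The clone-named gene, coq8b, p4ha3 and dhx40 were called higher in myelomonocytes too. Beside mir142a, the nearest gene on its start side was supt4h1, a transcription elongation factor (0.56 ± 0.13), and the next was hsf5, a heat shock factor relative, which averaged 6.33 in knockout marrow and 5.47 in wild-type marrow (0.87 ± 0.12). Further out on the start side of mir142a, a clone-named gene rose by 2.35 ± 0.43, the largest change in this stretch. Another clone-named gene there changed by -0.77 ± 0.19. ostf1, on the end side of mir142a, fell by 0.42 ± 0.10. In wild-type marrow the means of hsf5 (5.47) and p4ha3 (4.70) lay below the dim level. So did those of the clone-named genes that rose by 1.72 (5.32) and by 2.35 (5.31). The sizes of these rises are poorly fixed at their lower end. Such genes can pass the dim level through the arrays where they are high, and they count in the shares called near mir142a and mir142b. coq8b, hsf5 and the clone-named gene next to mir142b held, and the other calls given here were lost without at least 1 array. The labels do not state the genetic background of the fish lines, and its part in these calls was not tested.

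**Figure D5:**
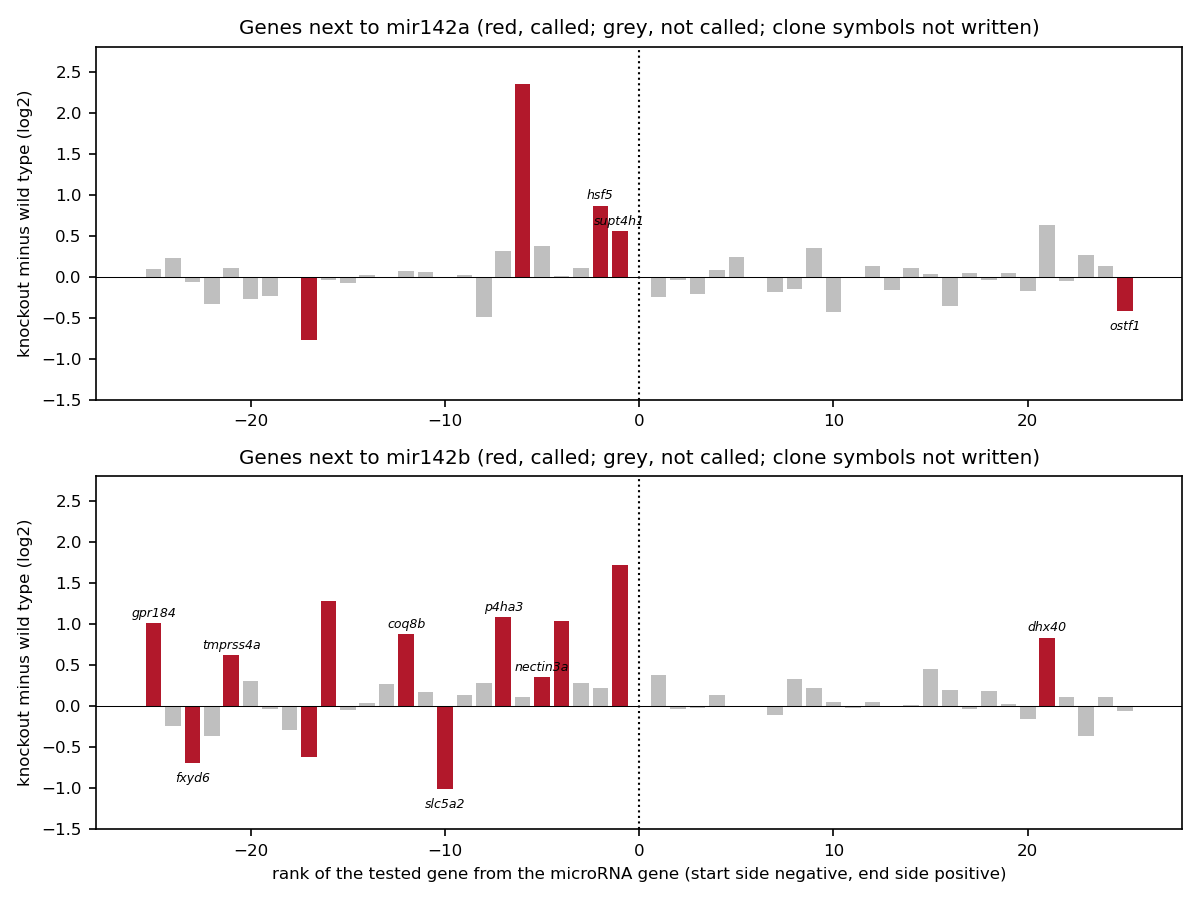
Change (knockout minus wild type, log2) in whole marrow of the 25 nearest tested genes on each side of mir142a (top) and mir142b (bottom), in gene order, with called genes in red. Called genes gather on the start side of mir142b, that of lower chromosome coordinates, with 11 of 12.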

How the data were processed

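RNA of 8 samples was labelled from 200 ng and hybridised to 1-colour Affymetrix whole-transcript arrays, per the labels' protocols. The authors deposited log2 levels per probe set, and the labels do not state their background correction or normalization; array medians lay between 5.49 and 5.54, so the values were used as deposited. Of 75212 probe sets, 20806 had 1 symbol, 855 several and 53551 none here; 20323 were matched by gene ID to the RefSeq table (assembly GRCz12tu), which served only for names and gene order. The brightest probe set stood for each of 19260 symbols, and 5486 symbols with a mean over all 8 arrays below 5.52 were set aside. Limma 3.58.1 in R 4.3.3 fitted a mean for each of 4 groups (4 residual and 4.00 prior degrees of freedom), with Benjamini-Hochberg adjustment over 13774 genes. The scripts were tested on simulated data. The number of arrays limits the precision.

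The comparison, the gene lists and the alternatives were chosen with earlier results of these data known. Named genes were the 30 largest called changes in each direction without clone symbols, the leading members of each list with up to 6 called ones, and the 10 largest called differences between populations in each direction. Alternatives changed the dim level, the probe set rule, the scaling, the samples fitted, the variance prior and the replicate block. Each whole marrow array was also left out in turn, and a block across populations was added after seeing the data. 1 called gene of the actin and reported target lists, lower in knockout marrow, is not reported here.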

Additional observations from a re-analysis of the deposited data

Results flagged for a closer look

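For 22 of the named genes the genotype change in whole marrow differed from that in myelomonocytes by limma's test of the difference itself at an adjusted p under 0.05, out of 38 such genes over the 13774 tested. Each value below is the change in whole marrow minus the change in myelomonocytes on the log2 scale.

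The change was more positive in whole marrow for 12 of them. The differences were 3.2 for il11b, 2.31 for KANK2, 2.24 for gypc, 2.1 for cobll1b, 1.94 for psat1 and 1.91 for cxl34b.11. They were 1.89 for kcnk18, a potassium channel that fell in both populations, 1.56 for gabbr1a, a GABA receptor subunit that also fell in both, 1.48 for unc119a1, 1.46 for csrnp1a, 1.41 for eomesb and 1.23 for crlf2.

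The change was more negative in whole marrow for the other 10. The differences were -3.77 for hpdb, -1.90 for socs1b, -1.73 for slco1f1, -1.64 for tlr21, -1.59 for cd22, a B cell lectin, and -1.53 for foxp3a. They were -1.43 for anxa1a, -1.42 for moxd1, -1.39 for rdh8a, a retinol dehydrogenase, and -1.39 for parp9. socs1b and slco1f1 rose in both populations and by more in myelomonocytes. hpdb passed the dim level only through the wild-type marrow arrays, where it was high.

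Without 1 whole marrow array, the difference of hpdb kept its call in all 4 cases. Those of kcnk18 and psat1 were lost without the first or the second wild-type array, with adjusted p up to 0.119 for psat1, and the other 19 were lost without 3 or 4 of the arrays.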

How the results depend on the processing

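Of 3431 pairs of a gene result and an alternative, 2755 kept their direction and side of the threshold, 653 lost the call, 23 gained one and 0 reversed. The count of 1278 genes stayed within 1.5 times under every alternative except leaving out an array, when it lay between 361 and 515. Fewer samples were then fitted, and whether that or the array left out lowered the count was not tested. The count of 38 differences between populations was 23 after quantile normalization and 94 with a variance trend. It lay between 1 and 7 with 1 array left out. The cause was not tested for any of these. With the replicate number as a block, 1033 genes and 1 difference were called, and 35 of 191 called genes lost the call. Deviations of equal numbers from their group means correlated across genes at -0.000189 between knockout and wild-type marrow. Between the genotypes in myelomonocytes the correlation was 0.0911. With 2 arrays a group these values cannot exclude that equal numbers were handled together. Between marrow and myelomonocytes of 1 genotype the deviations correlated at 0.267 in knockout and 0.405 in wild-type samples. The labels do not say that a number marks a shared pool of kidneys, so this pairing is a hint from the data. With the number within each genotype as a block across populations, chosen after seeing the data, 254 differences were called, the 38 among them. With 1 array left out, the lone array was assumed to vary like the other groups. Dim levels limit the size of changes that cross 5.52. A gene that fell below the dim level in an alternative was left out of the 3431 pairs there. In whole marrow hpdb was thus compared in 10 alternatives and foxp3a in 11, against 12 for ifngr1.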
